A study of Homo sapiens with 2 samples.

Results

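The lysosomal gene set described here comprises 56 genes for hydrolases, membrane proteins and subunits of the vacuolar H+-ATPase (V-ATPase), taken by gene name from a list of lysosomal genes. The rule uses no measured value, but the list was drawn up with earlier results of these data known. All 56 are among the 49900 genes with isoforms in the table, and all reached 1 FPKM in at least 1 library, as did 17965 genes in all. FPKM is fragments per kilobase of transcript, scaled to sequencing depth, and a gene's level is the sum over its isoforms. The libraries are total RNA from 1 young culture of WI-38 cells at population doubling level 20 and 1 replicatively senescent culture at level 52, both grown in DMEM. WI-38 is an established line of human diploid lung fibroblasts with a limited life span in culture, and the labels name no treatment or genetic change other than replicative senescence. Each group holds 1 library of 1 line, so the spread between cultures is unknown, and every difference below is one between 2 libraries with no replicate check and no test.

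Lysosomes are acidic organelles in which hydrolases break down glycans, lipids, proteins and nucleic acids. The V-ATPase pumps protons into them. Its membrane-embedded V0 sector carries the protons, and its cytosolic V1 sector hydrolyses ATP. Most soluble hydrolases reach the lysosome through mannose 6-phosphate tags and their receptors, whereas membrane proteins such as LAMP1 and LAMP2 coat the limiting membrane. Many lysosomal genes carry a CLEAR motif near their start, which is bound by the transcription factors TFEB, TFE3 and MITF. Senescent fibroblasts are commonly identified by lysosomal beta-galactosidase activity, which GLB1 encodes.

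The levels of most lysosomal genes were higher in the senescent library. Where 2 values stand together, the young one comes first, and the log2 ratio is that of senescent over young after 1 FPKM was added to both, which understates the difference of low genes. A gene is called 2-fold higher or lower on that scale. By this rule 20 of 56 genes were at least 2-fold higher and 0 were 2-fold lower, against 6.65% and 8.58% of the 17965 genes measured. Among the 51 that reached 5 FPKM in either culture, 20 were again 2-fold higher, against 7.04% of 10662 genes. The median log2 ratio was 0.73 over the lysosomal genes and -0.10 over all measured genes. The ratio was above 0 for 49 of the 56 genes, against 43.3% of all measured genes. Summed over the set, the level was 3219 and 5682 FPKM.

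**Figure D1:**
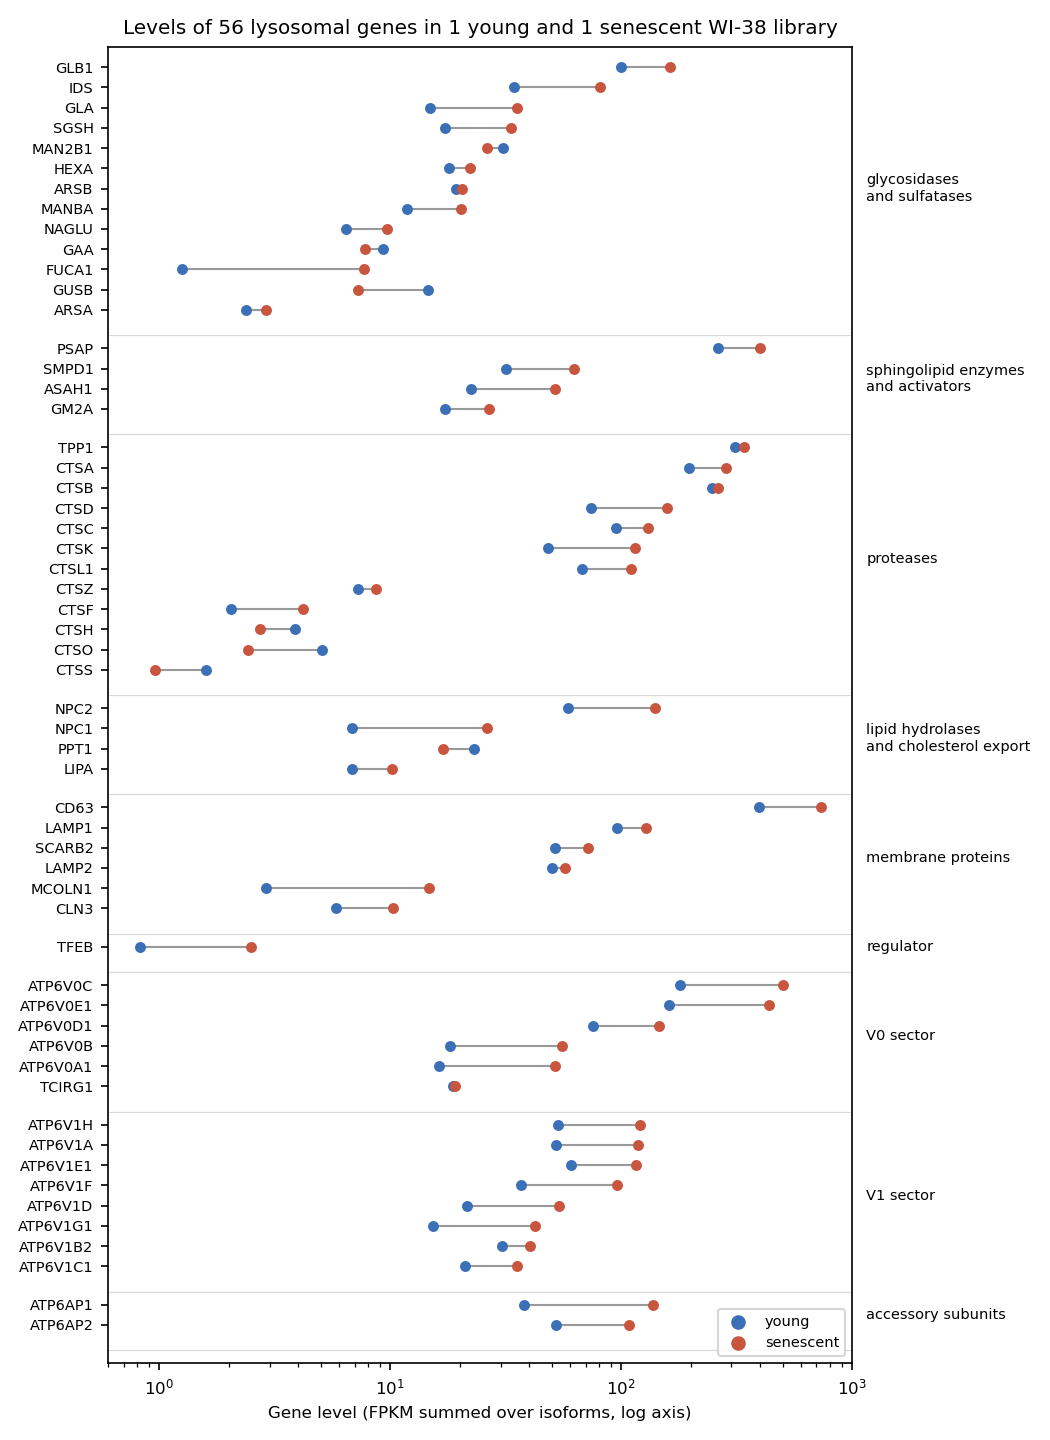
Gene level in FPKM on a log axis for each of the 56 genes, grouped by role, with the young library in blue and the senescent library in red and a grey line joining the 2 values of a gene. The senescent point lies to the right of the young one for 49 genes, and the longest lines are those of FUCA1, MCOLN1, NPC1 and ATP6AP1.

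The size of the difference varied by role, while the median was above 0 in each. The V-ATPase genes had a higher median than the rest, with 11 of 16 at least 2-fold higher and a median of 1.23, compared with 9 of 40 and a median of 0.56 for the remaining genes. Among the hydrolase groups, 3 of 13 glycosidases and sulfatases, 1 of 4 sphingolipid genes and 2 of 12 proteases were 2-fold higher. Of the 4 lipid and cholesterol genes 2 were 2-fold higher, as was 1 of the 6 membrane proteins. The 7 genes with a ratio below 0 were GUSB, CTSO, PPT1, CTSS, CTSH, GAA and MAN2B1, all of them hydrolases.

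**Figure D2:**
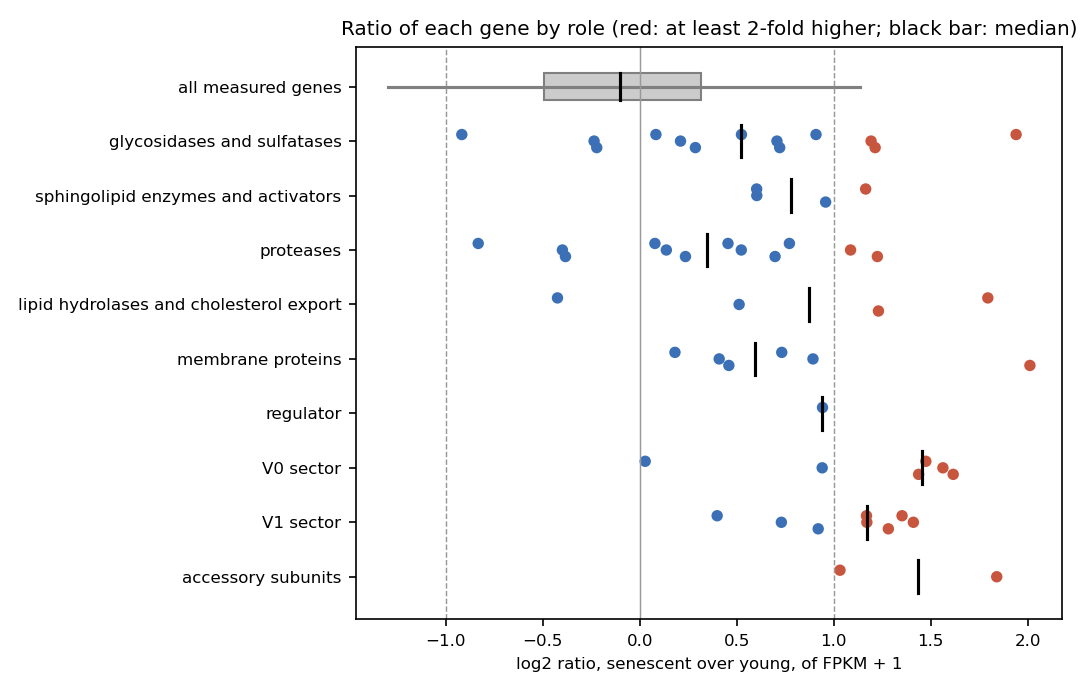
Log2 ratio of senescent over young (FPKM + 1) for each gene, by role, with red points at least 2-fold higher, a black bar at each median and dashed lines at 2-fold. For all measured genes the box spans the 25th to 75th percentile, from -0.49 to 0.32, and the line the 5th to 95th, from -1.30 to 1.13, and 20 points lie right of the upper dashed line and none left of the lower one.

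In terms of depth, the steps of the FPKM values in unnamed intergenic loci gave an effective depth of 15880000 fragments for the young and 14780000 for the senescent library. At a length of 1200 bases, 1 fragment is worth 0.0630 and 0.0677 FPKM. Estimated fragments of a gene, and the 95% intervals of their depth-scaled fold (Clopper-Pearson), are approximate and cover counting error only. The label check genes moved with the labels, with MKI67 of cycling cells at 34.7 and 1.33 FPKM and CDKN1A, the gene of p21, at 306 and 862 FPKM. Of 10 fibroblast markers all were measured and 5 were 2-fold lower, with a summed level of 10572 and 5771 FPKM. Of 11 leukocyte markers, whose cells are rich in lysosomes, the sum was 58.6 and 44.1 FPKM, nearly all of it CD163 at 53.9 and 40.3 FPKM, and AIF1, TYROBP, ITGAM and HLA-DRA were at 0 in both libraries. Of 5 epithelial markers the sum was 14.9 and 8.40 FPKM, of the 4 endothelial markers found 21.1 and 9.89 FPKM, and of the 3 osteoclast markers found 0.910 and 0.947 FPKM, with SFTPC, CDH5 and CALCR at 0 in both. The 2 epithelial markers measured went opposite ways, with KRT19 at 11.5 and 1.37 FPKM and KRT18 at 2.84 and 6.75 FPKM. In bulk RNA, a different share of cells of a type and a different amount of RNA per cell cannot be told apart.

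Promoter sequences show which of these genes carry the motif of the TFEB family near their start. RefSeq promoters (GRCh38.p14, 250 bases before to 50 after a start) were found for 39 of the 56 genes. The palindrome CACGTG, the core that these factors and other basic helix-loop-helix proteins bind, was present in 12 of the 39 genes (30.8%), against 8.77% of 27305 genes with a promoter in the table. By promoter, 13 of 56 held it (23.2%), against 7.26% of all 35116. The longer TCACGTGA was present in 7 of the 39 genes (17.9%, against 1.18% of all genes). Each motif is its own reverse complement, and the longer one contains the shorter. The sequences of 8 genes are shown because they span the range of ratios, from MCOLN1, which had the highest log2 ratio, to GAA, which was slightly lower in the senescent library. Capitals mark the longer of the motifs found at each site, sequences run 5′ to 3′ on the gene's strand, and only bases upstream of the start are shown.
MCOLN1 (chr19:7522571-7522623, plus strand): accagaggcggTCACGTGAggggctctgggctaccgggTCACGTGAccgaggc
ATP6V0B (chr1:43974891-43974938, plus strand): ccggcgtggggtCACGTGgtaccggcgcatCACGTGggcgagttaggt
ATP6V1G1 (chr9:114587699-114587728, plus strand): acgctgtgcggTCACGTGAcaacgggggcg
CTSD (chr11:1763957-1763986, minus strand): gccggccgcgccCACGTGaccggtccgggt
ATP6V0D1 (chr16:67481199-67481228, minus strand): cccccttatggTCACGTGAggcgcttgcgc
CTSA (chr20:45891281-45891327, plus strand): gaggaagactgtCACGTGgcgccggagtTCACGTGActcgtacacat
LAMP1 (chr13:113297035-113297228, plus strand): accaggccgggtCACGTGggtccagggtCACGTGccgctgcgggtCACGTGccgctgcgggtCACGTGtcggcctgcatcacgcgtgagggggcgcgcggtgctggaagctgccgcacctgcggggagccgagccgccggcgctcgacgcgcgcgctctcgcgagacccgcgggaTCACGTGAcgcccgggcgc
GAA (chr17:80101493-80101567, plus strand): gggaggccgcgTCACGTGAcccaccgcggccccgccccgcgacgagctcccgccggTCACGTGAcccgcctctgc

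The median ratio was not higher among genes with the motif than among those without it. The 12 genes with CACGTG had a median log2 ratio of 0.83 and included 4 that were 2-fold higher, whereas the 27 without it had a median of 0.92 and included 11. GAA and MCOLN1 each have 2 copies of TCACGTGA, and their log2 ratios were -0.24 and 2.01. LAMP1 has 5 copies of CACGTG upstream of its start, more than any other gene matched, and a log2 ratio of 0.41. Of 11 V-ATPase genes matched, 3 carried the motif. For TCACGTGA, the 7 genes with it had a median of 0.73 and the 32 without it a median of 0.91. A match is a description of letters in this window and not a measured binding site. The part of the TFEB family in these ratios was not tested.

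The factors themselves differed in level. TFEB (chr6:41651716-41703997, minus strand, hg19) stood at 0.820 and 2.49 FPKM, log2 ratio 0.94. That corresponds to an estimated 18 and 29 fragments spread over 16 isoforms, none of which reached 1 FPKM, and the interval of the fold in fragments, 0.929 to 3.31, includes no difference. TFE3 was at 13.6 and 19.8 FPKM, log2 ratio 0.51. MITF was higher, at 12.4 and 72.2 FPKM, log2 ratio 2.45, the highest ratio among the 59 other lysosome genes measured. In the senescent library MITF was thus the most abundant of the 3 per length, with TFEB lowest in both libraries. Fragments and intervals were not estimated for TFE3 and MITF.

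The V0 sector contained the most abundant V-ATPase transcripts. ATP6V0C, which encodes the proteolipid that forms the proton-carrying ring, was at 179 and 500.5 FPKM, log2 ratio 1.48. Its level came from a 522-base and a 934-base transcript, both classed as possible new isoforms. The shorter one gave 65.2% of the young and 66.4% of the senescent level. With transcripts of 700 bases or more alone the log2 ratio of ATP6V0C was 1.42. ATP6V0E1, a small membrane subunit, was at 161 and 438 FPKM, log2 ratio 1.44. ATP6V0B, a second kind of ring proteolipid, was at 18.1 and 55.3 FPKM, log2 ratio 1.56. These 3 genes were 2.72-fold to 3.06-fold higher by plain ratio. ATP6V0D1, which links the ring to the central stalk, was at 75.5 and 146 FPKM, a plain ratio of 1.93-fold and a log2 ratio of 0.94, just under the 2-fold rule.

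The subunit a genes, which encode the half-channels for protons and are alternatives to each other, differed in their ratios. ATP6V0A1 (chr17:40610862-40674596, plus strand, hg19), subunit a1, was at 16.2 and 51.7 FPKM, log2 ratio 1.62. TCIRG1, subunit a3, which is best known from the osteoclast ruffled border, was at 18.7 and 19.1 FPKM, log2 ratio 0.03. ATP6V0A2, subunit a2, was at 20.9 and 15.1 FPKM, log2 ratio -0.45. Summed over isoforms, the 3 genes were at similar levels in the young library, and a1 alone was 2-fold higher in the senescent one. Among TCIRG1 isoforms at 1 FPKM or more, only the 868-base TCIRG1-014 is annotated as coding, at 2.95 and 2.55 FPKM. The ATP6V0A1 isoforms at that level are all annotated as coding, so the summed levels do not compare coding transcripts alone. The intervals of the fold in fragments were 3.005 to 3.55 for ATP6V0A1 and 1.02 to 1.45 for TCIRG1. ATP6V0A4, subunit a4, was at 0.0785 and 0.439 FPKM and under the minimum in both.

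**Figure D3:**
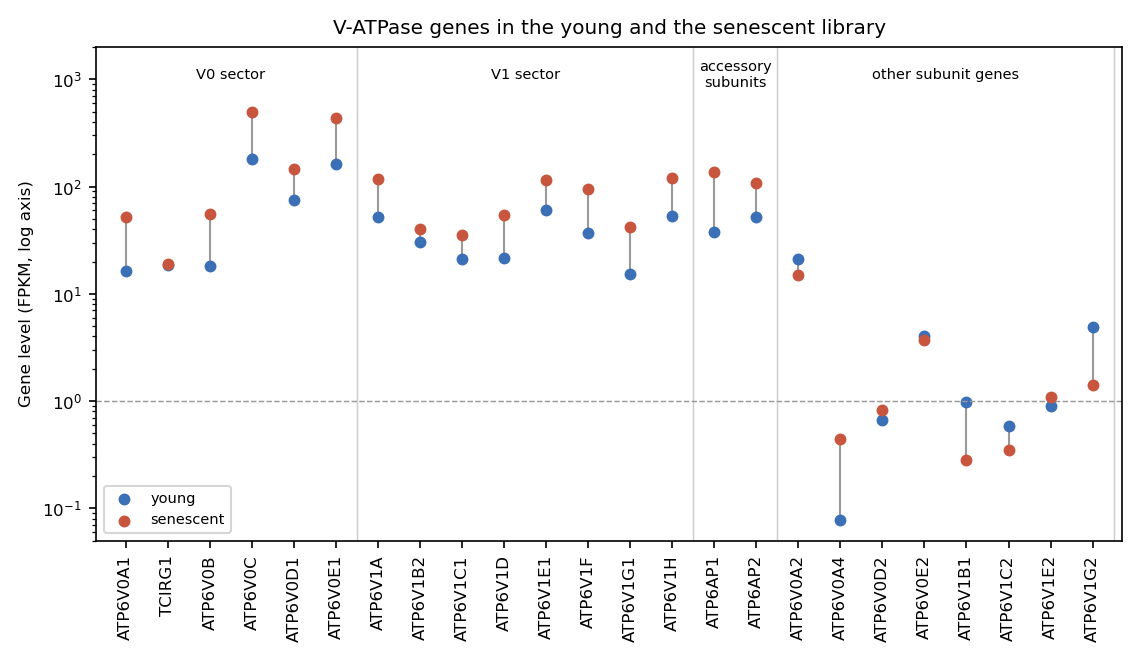
Level in FPKM on a log axis of the 16 V-ATPase genes of the set and of 8 other genes for V-ATPase subunits, with the young library in blue, the senescent library in red and the minimum of 1 FPKM dashed. The senescent point is above the young one for all 16, by little for TCIRG1, while the 8 others are at 20.9 FPKM or less.

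The V1 sector genes lay closer together, with log2 ratios from 0.40 to 1.41 and 5 of 8 at least 2-fold higher. ATP6V1A, the catalytic subunit that binds ATP, was at 52.1 and 118 FPKM, log2 ratio 1.17. Its partner in the hexamer, ATP6V1B2, was at 30.3 and 40.3 FPKM, log2 ratio 0.40, the lowest of the sector. The genes of the central stalk and its neighbours were higher, with ATP6V1D at 21.5 and 53.7 FPKM and ATP6V1F at 36.8 and 95.5 FPKM, log2 ratios 1.28 and 1.35. The peripheral stalk genes ATP6V1G1 and ATP6V1E1 were at 15.3 and 42.2 FPKM and at 60.6 and 116 FPKM, log2 ratios 1.41 and 0.92. ATP6V1C1, which links the stalks to V0, was at 21.0 and 35.4 FPKM, log2 ratio 0.73. Its 517-base transcript, annotated as a retained intron, was at 2.57 and 10.6 FPKM. The 5658-base coding isoform was at 8.34 and 8.19 FPKM and the 2079-base assembled one at 9.27 and 15.3 FPKM. The interval of the fold in fragments was 1.13 to 1.34 for ATP6V1C1.

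ATP6V1H, the regulatory subunit, was at 53.0 and 121 FPKM, log2 ratio 1.17, but its value rests on short transcripts. Transcripts under 700 bases gave 86.3% of its young and 92.4% of its senescent level. With transcripts of 700 bases or more alone its log2 ratio was 0.31. The other V1 genes kept their side of the 2-fold rule under that setting, as did every V0 gene.

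Both accessory subunits were 2-fold higher. ATP6AP1 (chrX:153656978-153664862, plus strand, hg19), which helps assemble V0, was at 37.7 and 138 FPKM, log2 ratio 1.84, the third highest of the set on that scale. Its log2 ratio was 1.49 with protein-coding transcripts alone, and the 566-base noncoding ATP6AP1-009 was at 12.5 and 55.8 FPKM. ATP6AP2, also known as the prorenin receptor, was at 52.2 and 108 FPKM, log2 ratio 1.03. That ratio is at the edge of the rule, was past 2-fold in 10 of 14 other settings, and was 0.72 with protein-coding transcripts alone. Some of the 14, namely the other minimums and the scalings, could not lower it. Of 8 other genes for V-ATPase subunits, many of them paralogs restricted to particular tissues, 4 reached 1 FPKM, with a median log2 ratio of -0.28, and ATP6V1G2, a neuronal form of subunit G, was 2-fold lower at 4.88 and 1.40 FPKM.

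Among glycosidases, GLB1 (chr3:33038112-33138722, minus strand, hg19), the beta-galactosidase of the senescence stain, was the most abundant at 99.5 and 163 FPKM, log2 ratio 0.71. This ratio is under the 2-fold rule, and 11.7% of measured genes had a higher one. The largest ratio of the group was that of FUCA1 (chr1:24171567-24194784, minus strand, hg19), a fucosidase that trims glycoproteins, at 1.25 and 7.66 FPKM, log2 ratio 1.94. It rests on an estimated 31 and 182 fragments, with an interval of 4.29 to 9.56 for the fold. GLA, the alpha-galactosidase deficient in Fabry disease, was at 14.8 and 35.2 FPKM, log2 ratio 1.19.

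The other glycosidases were all within the 2-fold rule, and 3 of them were lower in the senescent library. MANBA, a beta-mannosidase, was at 11.8 and 20.2 FPKM, log2 ratio 0.72. HEXA, which degrades gangliosides, was at 17.9 and 22.04 FPKM, log2 ratio 0.29. MAN2B1, an alpha-mannosidase, was at 30.8 and 26.3 FPKM, log2 ratio -0.22. GAA, the glucosidase of glycogen breakdown, was at 9.34 and 7.78 FPKM, log2 ratio -0.24. GUSB, the beta-glucuronidase often used as a reference gene, was at 14.6 and 7.25 FPKM, log2 ratio -0.92, the lowest of the whole set on that scale. By plain ratio GUSB was 2.01-fold lower, and CTSO was lowest of the set at 2.11-fold lower. Reads of GUSB may be shared with its pseudogenes, of which GUSBP3 was at 3.85 and 2.56 FPKM and GUSBP4 at 3.94 and 3.32 FPKM.

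IDS, the iduronate sulfatase of glycosaminoglycan breakdown, in which GUSB also acts, was at 34.2 and 80.5 FPKM, log2 ratio 1.21. The neighbouring pseudogene IDSP1 was at 3.57 and 12.8 FPKM and overlaps its span, so the assignment of some fragments is uncertain. SGSH, a sulfamidase of heparan sulfate breakdown, was at 17.3 and 33.3 FPKM, log2 ratio 0.91, and NAGLU of the same pathway was at 6.41 and 9.66 FPKM, log2 ratio 0.52. The sulfatase genes ARSA, whose enzyme acts on sulfatide, and ARSB were at 2.37 and 2.90 FPKM and at 19.2 and 20.4 FPKM, with log2 ratios of 0.21 and 0.08. These last 2 were the members of the group closest to no difference by log2 ratio. By plain ratio MAN2B1, at 1.17-fold lower, was closer to it than ARSA, at 1.22-fold higher.

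All 4 genes of sphingolipid breakdown were higher. PSAP, the precursor of the saposin activators, was the most abundant at 262 and 399 FPKM, log2 ratio 0.60. ASAH1, the acid ceramidase, was at 22.4 and 51.4 FPKM, log2 ratio 1.16, and was the one past 2-fold. SMPD1, the acid sphingomyelinase, was at 31.5 and 62.2 FPKM, log2 ratio 0.96. GM2A, an activator of ganglioside breakdown, was at 17.3 and 26.8 FPKM, log2 ratio 0.60.

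Proteases had the lowest median of the role groups, 0.35, and it was 0.0017 with transcripts of 700 bases or more alone. CTSK, the collagen-degrading cathepsin K, was at 48.3 and 114 FPKM, log2 ratio 1.23. CTSD, the aspartic protease cathepsin D, was at 73.7 and 158 FPKM, log2 ratio 1.09, and at 0.96 with annotated isoforms alone. CTSL1, cathepsin L, was at 67.7 and 110.4 FPKM, log2 ratio 0.70. CTSA, which protects beta-galactosidase and neuraminidase in a complex, was at 197 and 284 FPKM, log2 ratio 0.52. CTSC, which activates serine proteases of granules, was at 94.5 and 129.9 FPKM, log2 ratio 0.45.

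The most abundant proteases of the young library were nearly level by summed FPKM. TPP1, a tripeptidyl peptidase, was at 309 and 340.1 FPKM, log2 ratio 0.14, and at -0.57 with protein-coding transcripts alone. CTSB, cathepsin B, was at 248 and 262 FPKM, log2 ratio 0.08, while the interval of its fold in fragments was 0.896 to 0.982. Transcripts under 700 bases gave 67.3% of the senescent level of TPP1 and 56.6% of that of CTSB. TPP1 was the most abundant protease in both libraries, while CTSA was below CTSB in the young library and above it in the senescent one.

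Low protease genes divided. CTSF was at 2.04 and 4.18 FPKM, log2 ratio 0.77, and CTSZ at 7.22 and 8.68 FPKM, log2 ratio 0.24. CTSO was at 5.08 and 2.41 FPKM, log2 ratio -0.83, a plain ratio of 2.11-fold lower, on an estimated 222 and 98 fragments. CTSH was at 3.87 and 2.73 FPKM, log2 ratio -0.38. CTSS, the cathepsin of antigen-presenting cells, was at 1.59 and 0.960 FPKM, log2 ratio -0.40. The intervals of the fold in fragments were 0.370 to 0.604 for CTSO, 0.407 to 0.902 for CTSS and 0.498 to 1.02 for CTSH, of which the last includes no difference.

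The transcripts of both cholesterol export genes were 2-fold higher. NPC1 (chr18:21111401-21166451, minus strand, hg19), the membrane transporter, was at 6.84 and 26.2 FPKM, log2 ratio 1.80, and 1.41% of measured genes had a higher ratio. NPC2 (chr14:74942895-74960880, minus strand, hg19), the soluble carrier that hands cholesterol to NPC1, was at 58.95 and 139.7 FPKM, log2 ratio 1.23. LIPA, the acid lipase that frees this cholesterol from its esters, was at 6.83 and 10.2 FPKM, log2 ratio 0.51, and at 0.15 when isoforms were weighted by length. PPT1, a thioesterase that removes palmitate from proteins, was at 23.1 and 16.9 FPKM, log2 ratio -0.42.

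Of the membrane proteins, the ion channel stood apart from the coat proteins. MCOLN1 (chr19:7587496-7598894, plus strand, hg19), the calcium channel of the mucolipin family, was at 2.90 and 14.7 FPKM, log2 ratio 2.01, the highest of the set on that scale. It rests on an estimated 88 and 413 fragments, with an interval of 3.997 to 6.42 for the fold. By plain ratio FUCA1 was higher, at 6.10-fold compared with 5.08-fold for MCOLN1. CD63, a tetraspanin of late endosomes and exosomes, was the most abundant gene of the whole set in both libraries at 395 and 735 FPKM, log2 ratio 0.89. CLN3 was at 5.79 and 10.3 FPKM, log2 ratio 0.73. SCARB2, the sorting receptor of glucocerebrosidase, was at 51.9 and 71.7 FPKM, log2 ratio 0.46. LAMP1 and LAMP2 were at 96.2 and 128 FPKM and at 50.02 and 56.9 FPKM, log2 ratios 0.41 and 0.18. None of the 5 genes other than MCOLN1 passed 2-fold.

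A gene's sum can hide isoforms that differ, and this was examined for isoforms that reached 5 FPKM in either culture. Of 151 such isoforms from 48 genes, 55 were at least 2-fold higher and 6 were 2-fold lower, against 13.0% and 10.8% of the 17901 isoforms of all named genes at that level. Isoforms past 2-fold in both directions were found in 3 of the 48 genes, GLB1, MANBA and CTSA. The same share over all named genes was not computed, so whether this count is unusual is unknown. In GLB1, the 550-base GLB1-007 was at 1.36 and 10.7 FPKM and the 547-base GLB1-010 at 8.98 and 2.01 FPKM. Both are noncoding transcripts in the annotation, and the 2018-base coding isoform GLB1-003 was at 9.84 and 15.4 FPKM. Transcripts under 700 bases gave 72.7% of the young and 72.9% of the senescent GLB1 level, so most of that level is carried by short transcripts in both.

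In MANBA the balance lay between 2 long assembled isoforms. The 3467-base one was at 8.67 and 2.41 FPKM, and the 3343-base one was listed at 0 for the young culture and at 7.39 FPKM for the senescent one, while the annotated 2904-base MANBA-001 was at 1.65 and 7.18 FPKM. With the highest isoform alone the log2 ratio of MANBA was therefore -1.50. In CTSA the 1898-base CTSA-004 was at 19.8 and 76.1 FPKM, the assembled 2084-base isoform at 38.1 and 15.7 FPKM, and the 1024-base CTSA-006 was highest in both libraries at 77.9 and 105 FPKM.

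LAMP2 is known for splice forms with different tails, and its isoforms also differed, though none at 5 FPKM passed 2-fold. LAMP2-001 of 1867 bases was at 14.5 and 24.6 FPKM and LAMP2-002 of 4030 bases at 28.7 and 23.6 FPKM. The share of LAMP2-001 in the gene's level was 28.9% and 43.2%, and that of LAMP2-002 was 57.4% and 41.6%. The order of these 2 isoforms was thus reversed by a small margin. Of 9 transcripts that lie past the end of a lysosomal gene or overlap it outside its isoforms, and reached 5 FPKM, 4 were 2-fold higher and 1 was 2-fold lower, against 18.5% and 33.8% of 7536 such transcripts of all named genes.

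**Figure D4:**
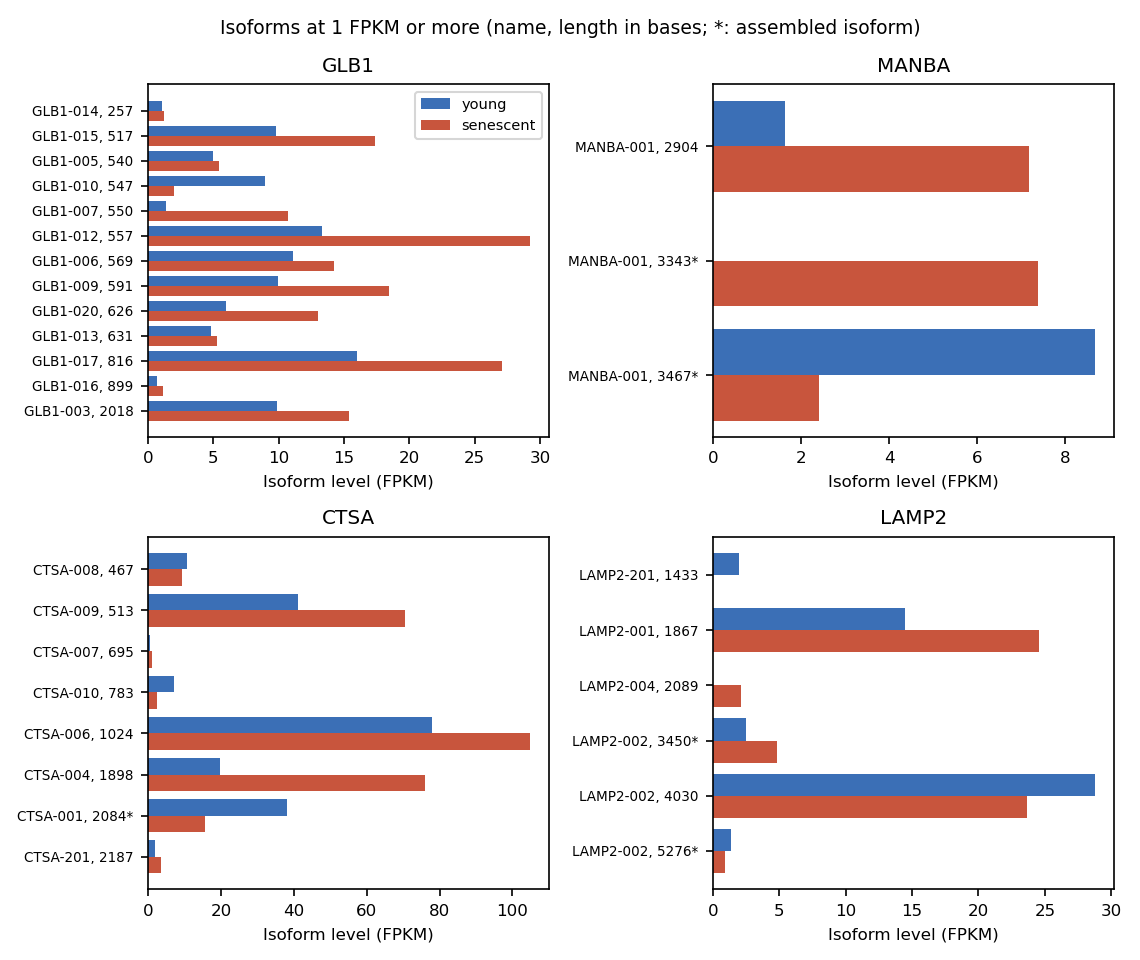
Level in FPKM of each isoform that reached 1 FPKM in either culture, for GLB1, MANBA, CTSA and LAMP2, ordered by length in bases, with the young library in blue and the senescent library in red and assembled isoforms starred. In GLB1 most isoforms are under 700 bases, and in MANBA the 3467-base isoform is higher in the young library while the 2 shorter ones are higher in senescent cells.

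The authors' deposited table gives a q-value for each isoform, computed from 1 library per group, and marks those under 0.1. Of 354 isoforms of lysosomal genes that could be tested, 17 were marked as higher and 2 as lower, in 15 genes. These are 4.80% and 0.565% of the isoforms tested, against 1.66% and 2.03% of all isoforms of named genes. Among isoforms of lysosomal genes, the smallest q-value in the authors' deposited table was that of an assembled 964-base CTSD isoform at 0.324 and 13.7 FPKM, with a q-value of 1.82e-04. For the 2097-base MCOLN1 isoform the authors' deposited table has a q-value of 0.0208, the annotated NPC1-001 one of 0.0218 and ATP6V1A-001 one of 0.0295. The 2 isoforms marked as lower in the authors' deposited table were an assembled 2846-base TPP1 isoform at 21.4 FPKM in the young library and PSAP-001 at 3.43 FPKM, both listed at 0 for senescent cells.

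A wider list of 67 other lysosome genes, of which 59 were measured, leaned the same way but by less. Of these, 11 were at least 2-fold higher and 1, ATP6V1G2, was lower, with a median log2 ratio of 0.45 compared with 0.73 for the set. After MITF, the highest were CREG1, a secreted glycoprotein of lysosomes, at 2.66 and 14.7 FPKM, LGMN, the asparaginyl protease that matures cathepsins, at 9.81 and 39.7 FPKM, and OSTM1, the partner of the chloride transporter CLCN7, at 29.6 and 94.0 FPKM. Besides ATP6V1G2, low ratios were those of CLN6, at 8.96 and 4.49 FPKM, and of ATP6V0A2, given above. Among the most abundant, LAPTM4A was at 194 and 291 FPKM, CD164 at 175 and 207 FPKM and PLD3 at 135 and 109.8 FPKM.

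The size of these differences held up unevenly across settings. Of the 20 genes that were 2-fold higher, 17 were so in every one of 14 other settings that gave a value for them, and CTSD, ATP6V1H and ATP6AP2 were not. Among the 14, the other minimums leave a ratio as it is and the scalings raised every ratio, so those could not lose such a gene. All 7 genes with a ratio below 0 were below 0 in every setting that gave a value, and TCIRG1, CTSB, TPP1, LAMP2, CTSC, ARSA and MANBA changed sign in at least 1. A different pseudocount or minimum cannot change the sign of a ratio. Of 55 genes with coordinates, 15 overlap another measured gene, among them 8 of the 20 past 2-fold. The same share over all measured genes was not computed, so whether these counts are unusual is unknown. GLA overlaps RPL36A at 42.8 and 27.0 FPKM and CTSA overlaps PLTP at 61.9 and 16.3 FPKM, both on the other strand and both lower in the senescent library. Other overlapping genes were higher there, with AF011889.5, on the same strand as IDS, at 15.8 and 38.0 FPKM and MPP5, opposite to ATP6V1D, at 11.4 and 22.2 FPKM. The use of strand in counting is not stated, and the part of these genes in the values was not tested.

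**Figure D5:**
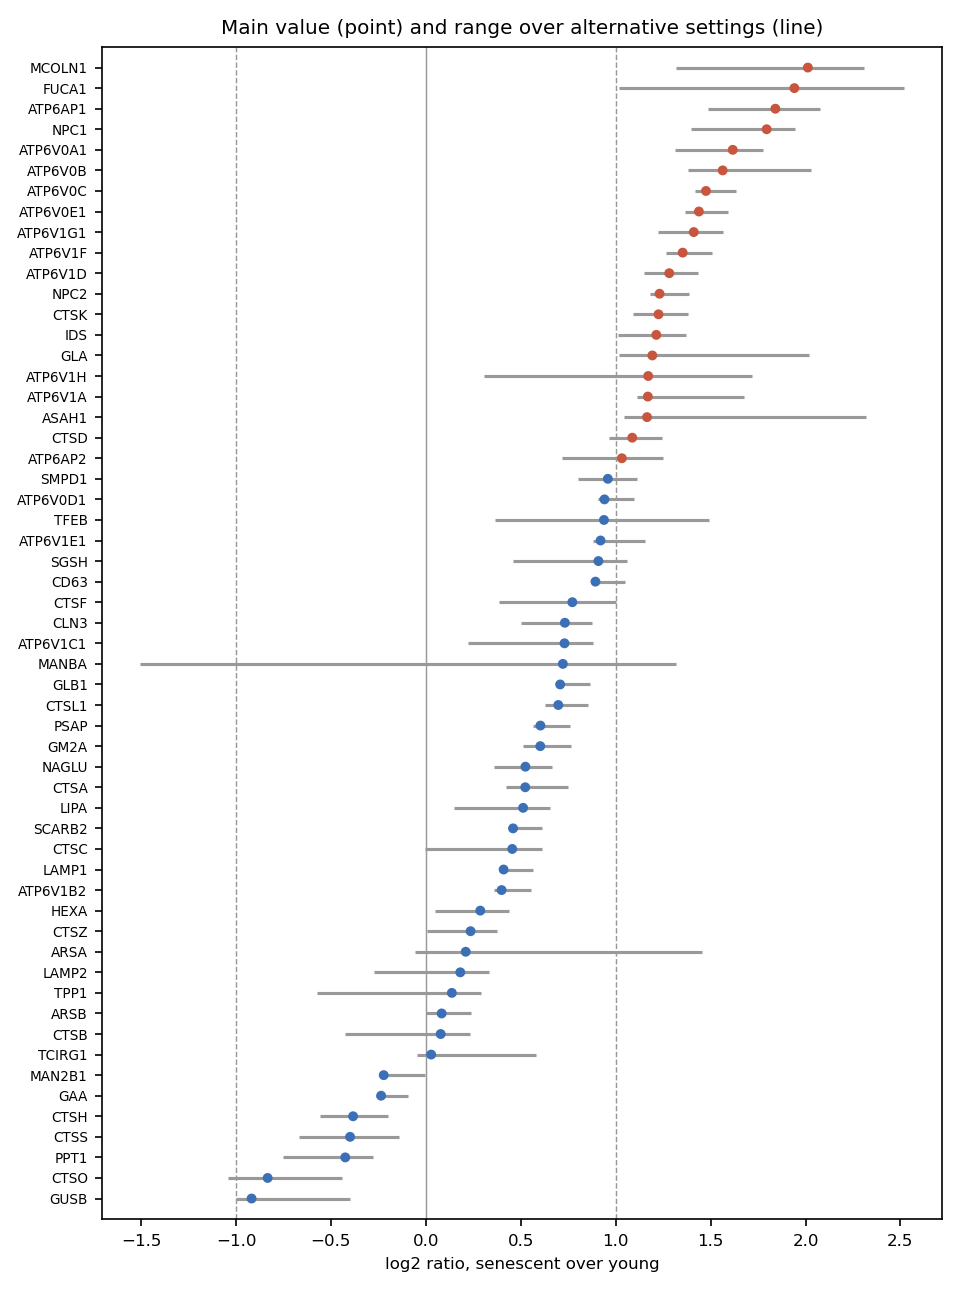
Log2 ratio of senescent over young for each gene, with the main value as a point (red at 2-fold or more) and a line from the lowest to the highest value over the other settings. The lines of 17 red genes stay right of the dashed 2-fold line, and the widest line, that of MANBA, runs from -1.50 to 1.32.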

How the data were processed

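Per the labels' protocols, Trizol-extracted total RNA from the 2 cultures was made into cDNA with NuGEN's Ovation V2 kit, which also amplifies RNA without a polyA tail. Per the submitters' processing notes, the tools were TopHat2 2.0.6, Cufflinks 2.0.2 and Cuffdiff with genome hg19. The annotation and the use of strand are not given in the sources used here. The authors deposited 1 table of 202463 transcripts with FPKM in each library, lengths, hg19 coordinates and a p-value and q-value for each transcript. The authors' deposited fold ratio and log2 columns were not used. The column named old was taken as the senescent sample.

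Gene values were sums of FPKM over transcripts classed as complete matches, possible new isoforms or contained ones (Python 3.11.15, pandas 2.3.3). The rule was 2-fold with a pseudocount of 1 FPKM and a minimum of 1 FPKM. There were 12 other settings, and 3 more (protein-coding transcripts, transcripts of 700 bases or more, weighting by length) were chosen after seeing the data. The calling step was run on a copy of the young library with known fold changes and no added noise. That checks the code only and says nothing about the error of calls between real libraries. Members and lists were chosen with earlier results of these data known. All members were eligible for naming, with 11 other lysosome genes taken by highest ratio, lowest ratio and level, of which 1 is not reported here, and TFE3 and ATP6V0A4 were named beside their partners after their values were seen.

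Effective depth was the value at which FPKM times length less 200 bases came closest to whole fragments in unnamed loci (79.4% of 3562 values in the young and 80.9% of 3964 in the senescent data within 0.05, 10% by chance). Whole fragments were not recovered for annotated genes, so no count model was fitted across genes, and the intervals on their estimated fragments are approximate. Estimated fragments sum FPKM times length less 200 bases (at least 100), times depth, over a gene's isoforms. Promoters came from RefSeq.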

Additional observations from a re-analysis of the deposited data

Results flagged for a closer look

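Transcripts that carry a lysosomal gene's name but were classed as lying past its end, or as overlapping it outside its isoforms, are outside the gene values. Of 9 at 5 FPKM or more, 4 were at least 2-fold higher in the senescent library and 1 was 2-fold lower. The remaining 4 were higher by less than 2-fold, among them one classed as opposite to GLB1 at 17.4 and 30.2 FPKM and one classed as opposite to LAMP1 at 13.4 and 26.0 FPKM. Past the end of ARSA, a 218-base transcript was at 4.84 and 22.6 FPKM and a 266-base one at 5.93 and 13.2 FPKM. Past the end of GM2A, a 327-base transcript was at 1.39 and 8.43 FPKM, while a 333-base one was lower at 5.80 and 1.14 FPKM. Opposite to exons of ATP6AP2, a 120-base transcript was at 4.30 and 24.8 FPKM. With every class counted, the log2 ratio of ARSA was 1.46 in place of 0.21.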

How the results depend on the processing

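No paired analysis was possible because each group holds 1 library, and for the same reason no library could be left out. The count of 20 lysosomal genes at least 2-fold higher stayed within 1.5 times under all alternatives except a 1.5-fold rule, which gave 34 higher and 2 lower. The count of 0 lower became 1 with a pseudocount of 0.1 FPKM (CTSO) and 1 with the highest isoform (MANBA). The median over the set kept its sign in every setting. The median of the lipid and cholesterol genes was 1.02 with upper quartile scaling in place of 0.87. The protease median went from 0.35 to 0.0017 with transcripts of 700 bases or more and to 0.19 weighted by length, and that of glycosidases and sulfatases from 0.52 to 0.21 with the highest isoform. For the other lysosome genes, the count lower was 0 with a pseudocount of 5 FPKM, a minimum of 5 FPKM, the highest isoform, or transcripts of 700 bases or more, and a 1.5-fold rule gave 22 higher and 3 lower. Over all genes, the counts higher and lower were 464 and 499 with a pseudocount of 5 FPKM, 751 and 911 with a minimum of 5 FPKM, and 2611 and 3653 with a 1.5-fold rule. The count lower was 2492 with a pseudocount of 0.1 FPKM and 977 with protein-coding transcripts only, and the count higher was 753 with transcripts of 700 bases or more. Upper quartile scaling added 0.16 to each log2 ratio before the pseudocount and put 54.4% of 2-fold genes on the higher side, against 43.7% as deposited. It took ATP6V0D1, ATP6V1E1, SMPD1, SGSH, CD63 and TFEB past 2-fold. Depth limits TFEB, CTSS, CTSF, CTSZ, ARSA and CTSH, all under 100 estimated fragments in both libraries.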
